A study of Mus musculus with 12 samples.

Results

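The 7 genes described here are the chains of the receptors for interleukin 7 (IL7) and thymic stromal lymphopoietin (TSLP), Il7r, Il2rg and Crlf2, and the 4 Janus kinases, Jak1, Jak2, Jak3 and Tyk2. They were chosen by name, through their Ensembl identifiers, and are 7 of 51826 genes counted in the series. RNA was sequenced from 12 mouse pre-B cell lines, 6 with an empty retroviral vector (EV) and 6 with BCR-ABL1, a constitutively active tyrosine kinase made by the Philadelphia translocation. The question put to these genes was how much of each receptor chain and kinase RNA the BCR-ABL1 lines contained compared with EV lines.

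All lines came from the bone marrow of 2 wild-type C57BL/6 mice, labelled as pro-/pre B cells, which grew for 7 days with IL7 and were then transduced with the pMIG vector, empty or carrying BCR-ABL. Each mouse gave 3 lines per condition, named 1A to 1C and 2A to 2C, and the retroviral vector drove expression of BCR-ABL1. From 48 h after transduction the BCR-ABL1 lines were kept without IL7 for 1 week, whereas EV lines stayed in IL7 and were sorted for GFP, the vector's marker. BCR-ABL1 and the absence of IL7 thus coincided in all 6 BCR-ABL1 lines, and a GFP sort is stated for EV lines only. The parts of these differences cannot be told apart. P-values over the 12 lines measure the spread between lines, within and between these 2 mice. They say little about how the results vary over more animals.

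IL7 binds a receptor made of IL7R alpha (Il7r) and the common gamma chain (Il2rg), and TSLP binds IL7R alpha paired with its own chain, CRLF2. The receptor chains have no kinase of their own: JAK1 sits on IL7R alpha and JAK3 on the common gamma chain, and they phosphorylate STAT5. JAK2 and TYK2 serve mainly other cytokine receptors, JAK2 those for IL3, GM-CSF and TSLP, and TYK2 those for interferons, IL10 and IL12. Early B cell precursors of the mouse need IL7 to survive and divide.

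All 7 genes passed the filter on low counts and were among 15038 genes tested. Gene counts summed to between 34791011 and 64547911 per EV line and between 45230023 and 66011225 per BCR-ABL1 line, and a member had at least 682 counts in every line. All 12 B lineage markers checked were found above 1 CPM (counts scaled to the TMM-adjusted size of each library) in at least 1 line, and the 12 summed to 4952 to 8263 CPM in EV lines compared with 5027 to 5735 CPM under BCR-ABL1. Summed markers of myeloid cells reached at most 1.196 CPM, of mast cells and basophils 0.153 CPM, of stromal cells 1.35 CPM and of T and NK cells 3.76 CPM. Erythroid markers summed to 1.26 to 6.79 CPM in EV lines compared with 5.94 to 12.7 CPM under BCR-ABL1, most of it Hbb-bt, with Hba-a1 at 0 in every line. The part of this difference in the results below was not tested. In bulk RNA, fewer cells of a type and less RNA per cell cannot be told apart.

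Of the 7 genes, Il7r and Jak3 were lower in BCR-ABL1 lines beyond a 1.5-fold change (edgeR glmTreat, FDR below 0.05), as were 6.49% of all tested genes. None was higher beyond 1.5-fold, against 5.99% of all genes, and none of the 7 was higher at an unadjusted p below 0.05 or by DESeq2. Against no change at all (glmQLFTest), 5 of 7 were lower, Il7r, Il2rg, Jak2, Jak3 and Tyk2, where 25.9% of all genes were, and 0 were higher, where 22.5% were. In the same 5 genes the levels of all 6 BCR-ABL1 lines lay below those of all 6 EV lines, as in 13.5% of all genes. The median log2 fold change of the 7 was -0.53, and that of all tested genes was -0.02.

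**Figure D1:**
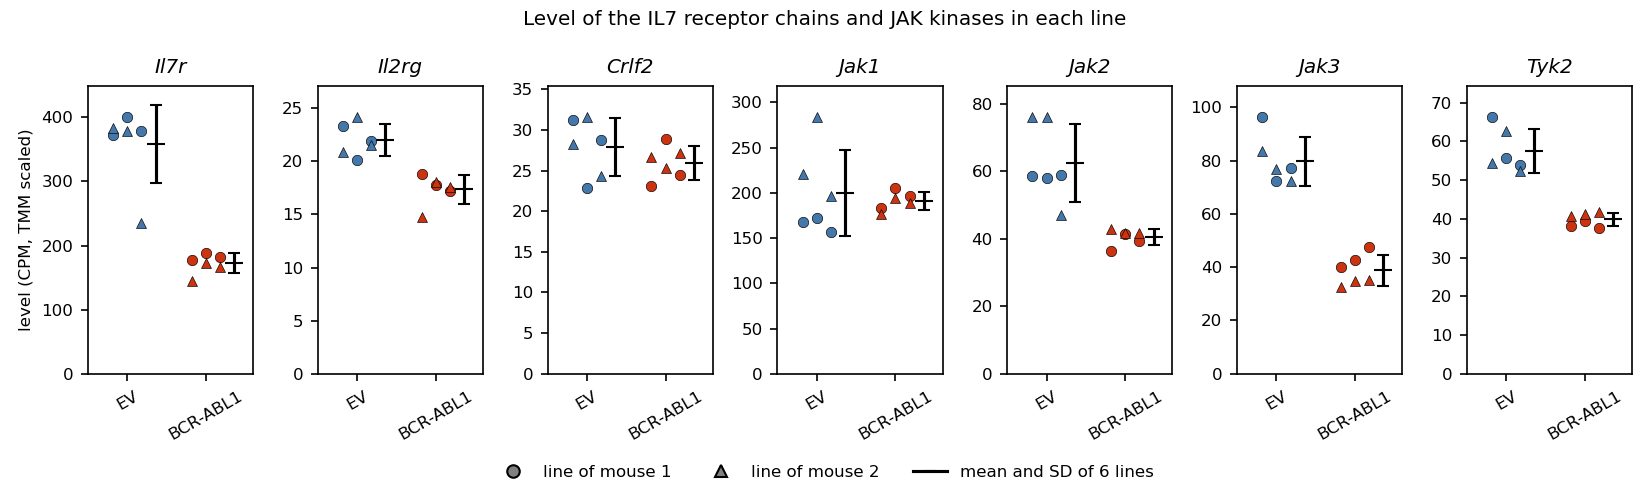
Level of each of the 7 genes in CPM (TMM scaled) in every EV and BCR-ABL1 line, with circles for lines of mouse 1, triangles for lines of mouse 2, and bars for the mean and SD of 6 lines. The 2 conditions do not overlap for Il7r, Il2rg, Jak2, Jak3 and Tyk2, and overlap for Crlf2 and Jak1.

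Il7r (ENSMUSG00000003882, GRCm38 chr15:9505788-9530176, minus strand) encodes the chain that gives the receptor its specificity for IL7. In EV lines its level ranged from 235.3 to 400.7 CPM with a median of 378.7 CPM. In BCR-ABL1 lines it ranged from 145.3 to 189.1 CPM with a median of 175.4 CPM. The groups did not overlap, and 5 of 6 EV lines lay within the narrow span from 372.2 to 400.7 CPM. Il7r fell by 1.06 on the log2 scale (SE 0.13, glmTreat FDR 0.00328), to 48.1% of the EV level. EV line 2C was the sole EV line under 372.2 CPM, and leaving it out gave -1.15 (FDR 1.89e-05).

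The change of Il7r was of like size in lines of each mouse, with log2 fold changes of -1.07 in mouse 1 and -1.04 in mouse 2 (difference 0.02, interaction FDR 0.970). Fitted on the 6 lines of mouse 2 by themselves, where EV line 2C is 1 of 3 EV lines, the change of -1.03 did not pass the test beyond 1.5-fold (FDR 0.108). Against no change it did (FDR 0.0210). Within BCR-ABL1 lines Il7r was at 178.2 to 189.1 CPM in mouse 1 and at 145.3 to 172.5 CPM in mouse 2. This difference of -0.19 on the log2 scale did not pass the test (FDR 0.680).

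The sequence upstream of Il7r is shown because Il7r was 1 of the 2 members called beyond 1.5-fold and factors of the STAT and ETS families are among its known regulators. RefSeq (GRCm38.p6) places the start of Il7r inside the longer GENCODE gene, and the 164 bases before that start, chr15:9529877-9530040 on the minus strand, lie in no GENCODE exon. Capitals mark a match to TTCNNNGAA, the letters of STAT sites, 142 to 134 bases before the start. They also mark ACTTCC, 49 to 44 bases before the start. It is the reverse complement of GGAAGT, the letters of ETS sites such as those of GABP.
Il7r upstream: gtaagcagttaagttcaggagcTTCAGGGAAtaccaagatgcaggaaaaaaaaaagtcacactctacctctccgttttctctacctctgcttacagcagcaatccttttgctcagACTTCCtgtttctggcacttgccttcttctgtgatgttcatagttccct

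Both strands were searched, from 250 bases before to 50 after each RefSeq start. TTCNNNGAA was found at 1 of the 7 genes, Il7r, and in 8.3% of 32851 promoter windows. GTAAACA, the letters of forkhead sites, was found at 0 of the 7 and in 3.65% of windows. GGAAGT was found at Il7r and Tyk2 and in 23.8% of windows, and these letters were chosen after the windows had been seen. A match describes the letters of the window and does not show that a factor binds there.

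Il2rg (ENSMUSG00000031304, chrX:101264378-101268255, minus strand) encodes the common gamma chain, which is shared with the receptors for IL2, IL4, IL9, IL15 and IL21. Its level was 20.1 to 24.2 CPM in EV lines with a median of 21.7 CPM, and 14.8 to 18.8 CPM in BCR-ABL1 lines with a median of 17.7 CPM. All BCR-ABL1 lines were below all EV lines, by a small margin. The log2 fold change was -0.34 (SE 0.064), which passed the test against no change (FDR 0.00350) and not the test beyond 1.5-fold (FDR 1). The test against no change did not pass without the filter on low counts (FDR 0.0739) or in lines of mouse 2 only (FDR 0.0883). Il2rg shares 728 exon bases with Gm20489 on the same strand, which held at most 2 counts in any line.

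Crlf2 (ENSMUSG00000033467, chr5:109554709-109558993, minus strand) encodes the chain that turns IL7R alpha into a TSLP receptor. It was measured at 22.9 to 31.6 CPM in EV lines with a median of 28.5 CPM, and the BCR-ABL1 lines gave 23.1 to 28.8 CPM with a median of 26.0 CPM. The range of the BCR-ABL1 lines lay inside that of the EV lines. The log2 fold change was -0.10 (SE 0.090), with an FDR of 0.370 against no change, and lay between -0.16 and -0.04 when any 1 line was left out.

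Jak1 (ENSMUSG00000028530, chr4:101152367-101265282, minus strand) encodes the kinase that binds IL7R alpha. In the 6 BCR-ABL1 lines it lay between 176.6 and 205.7 CPM with a median of 191.7 CPM. In the 6 EV lines it lay between 156.8 and 284.0 CPM with a median of 184.6 CPM, so the groups overlapped fully. The log2 fold change was -0.07 (SE 0.13, FDR 0.693 against no change), and without EV line 2B it was 0.05. The EV lines split by mouse: lines 1A, 1B and 1C had 167.7, 172.6 and 156.8 CPM, and lines 2A, 2B and 2C had 221.3, 284.0 and 196.5 CPM.

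A different change in the 2 mice was called for 1 of the 7 genes, Jak1. For the 6 others the test did not pass, which does not show that their changes were alike. Its log2 fold change was 0.24 in mouse 1 and -0.33 in mouse 2, a difference of -0.56 (interaction FDR 0.0452), and 16.9% of all genes had a called interaction. Within EV lines, Jak1 was higher in mouse 2 than in mouse 1 by 0.50 on the log2 scale (FDR 0.0116), a comparison in which 24.8% of all genes were called. Within BCR-ABL1 lines the difference between the mice was -0.06 (FDR 0.904), 0 of the 7 genes were called, 1 (Jak3) had an unadjusted p below 0.05, and 5.97% of all genes were called. The interaction lay near the threshold. Without EV line 2B or 2C Jak1 was still called, and without any 1 of the other 10 lines it was not, with FDRs up to 0.111. Without EV line 2C Jak2 was called as well, and the difference within EV lines did not pass without EV line 1C (FDR 0.0520). The biological coefficient of variation was 0.386 among the 3 EV lines of mouse 2 and 0.0844 to 0.103 in the 3 other groups of lines, and its part in the Jak1 difference was not tested.

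**Figure D2:**
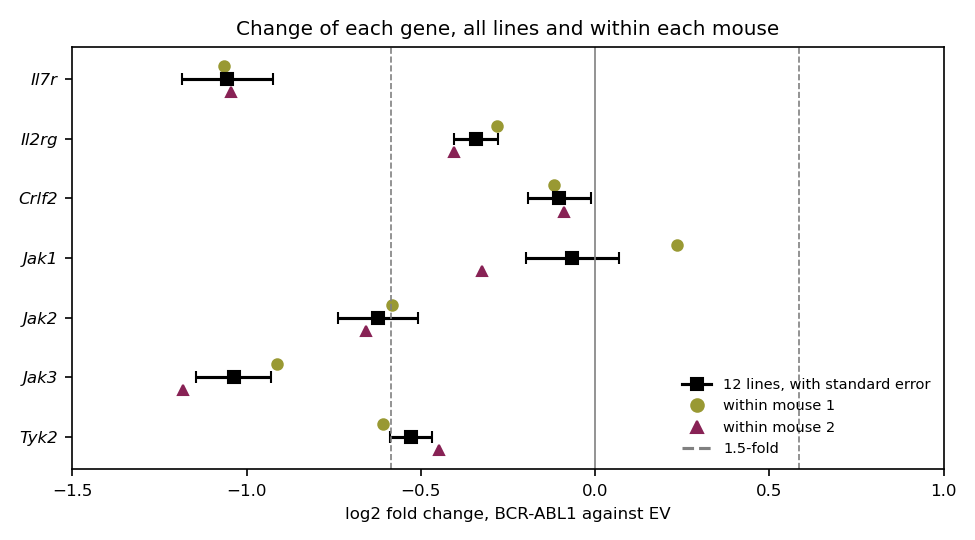
Log2 fold change of each gene in BCR-ABL1 against EV lines, as black squares with standard errors over the 12 lines, circles for mouse 1 and triangles for mouse 2, with dashed lines at a 1.5-fold change. Il7r and Jak3 lie well past the dashed line in each mouse, and the mouse 1 and mouse 2 values of Jak1 lie on opposite sides of 0 (0.24 and -0.33).

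Jak3 (ENSMUSG00000031805, chr8:71676296-71690575, plus strand) encodes the kinase partner of the common gamma chain, with few uses outside that receptor family. The medians were 76.9 CPM in EV and 37.6 CPM in BCR-ABL1 lines, and no BCR-ABL1 line reached the level of any EV line. In BCR-ABL1 lines of mouse 1 it was 40.1, 42.8 and 47.7 CPM, and in those of mouse 2 it was 32.6, 34.7 and 35.2 CPM. The 3 lines of mouse 2 were thus lower than those of mouse 1, but the difference of -0.35 between the mice did not pass the test (FDR 0.113), except when EV line 1A or EV line 2C was left out. The log2 fold change was -0.91 in mouse 1 and -1.18 in mouse 2 (interaction FDR 0.305), and the change beyond 1.5-fold passed the test under each of the 21 alternatives run (highest FDR 0.00767). Jak3 shares 404 exon bases with Insl3 on the same strand, to which 44 to 108 counts in EV and 16 to 39 counts in BCR-ABL1 lines were assigned, against 1692 or more for Jak3.

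Jak2 (ENSMUSG00000024789, chr19:29251828-29313080, plus strand) encodes the kinase of the beta common, TSLP and erythropoietin receptors. In EV lines it ranged from 47.0 to 76.1 CPM with a median of 58.7 CPM, and in BCR-ABL1 lines from 36.4 to 42.8 CPM with a median of 41.5 CPM. EV line 2C was again the lowest EV line, and EV lines 2A and 2B were the highest. Jak2 was lower by any change (log2 fold change -0.62, SE 0.11, FDR 0.000822), and the change beyond 1.5-fold did not pass (FDR 0.552). Leaving out EV line 2C gave -0.69 and an FDR beyond 1.5-fold of 0.174, and with lines of mouse 2 only the test against no change did not pass (FDR 0.0597).

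Tyk2 (ENSMUSG00000032175, chr9:21104068-21131243, minus strand) encodes the fourth kinase, which serves interferon and IL10 receptors. Levels were 52.2 to 66.3 CPM in EV lines with a median of 55.1 CPM and 37.7 to 41.9 CPM in BCR-ABL1 lines with a median of 40.2 CPM. The BCR-ABL1 lines lay close together and below every EV line. The log2 fold change was -0.53 (SE 0.061), with an FDR of 0.000105 against no change and of 1 beyond 1.5-fold. An antisense gene, 1700084C06Rik, shares 554 exon bases with Tyk2 and held 10 to 38 counts per line.

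Levels of different genes were compared as CPM per kilobase of annotated exon. In EV lines the order of mean levels was Il7r (76.8 ± 13.1, SD, n = 6), Jak1 (27.7 ± 6.54), Crlf2 (18.6 ± 2.38), Jak3 (14.9 ± 1.72), Jak2 (12.4 ± 2.28), Il2rg (9.22 ± 0.638) and Tyk2 (8.38 ± 0.816). Il7r and Jak1 stood apart from the next gene in every EV line, whereas each neighbouring pair from Crlf2 downward overlapped. In BCR-ABL1 lines the first 3 places were kept at lower or like levels, with Il7r at 37.0 ± 3.33, Jak1 at 26.4 ± 1.42 and Crlf2 at 17.3 ± 1.37 CPM per kilobase. Below them Jak2 (8.05 ± 0.462), Il2rg (7.27 ± 0.578), Jak3 (7.26 ± 1.07) and Tyk2 (5.81 ± 0.250) overlapped in neighbouring pairs. By mean level Jak3 was above Jak2 in EV and below it in BCR-ABL1 lines, but these genes overlapped in each condition. The order between genes, and the shares below, depend on the exon length used. It was 5352 bases for Jak3 (4049 in its longest transcript), 2387 for Il2rg (1670) and 5030 for Jak2 (5030). The order by longest transcript was not tested, so a move of Jak3 in rank is not shown.

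Summed per kilobase, RNA of the 3 receptor chains was 104.7 ± 14.2 CPM in EV and 61.6 ± 3.90 CPM in BCR-ABL1 lines (SD, n = 6). The share of Il7r in this sum was 73.0% ± 3.89 in EV and 59.9% ± 2.28 in BCR-ABL1 lines, that of Crlf2 18.0% ± 2.49 and 28.2% ± 2.61, and that of Il2rg 8.97% ± 1.53 and 11.8% ± 0.666. The 4 kinases summed to 63.3 ± 8.71 CPM per kilobase in EV and 47.5 ± 2.102 in BCR-ABL1 lines. Jak1 made up 43.3% ± 5.02 of this kinase RNA in EV and 55.5% ± 0.816 in BCR-ABL1 lines. The share of Jak3 was 23.8% ± 3.48 and 15.2% ± 1.84, while Jak2 (19.5% and 17.0%) and Tyk2 (13.4% and 12.2%) moved less.

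**Figure D3:**
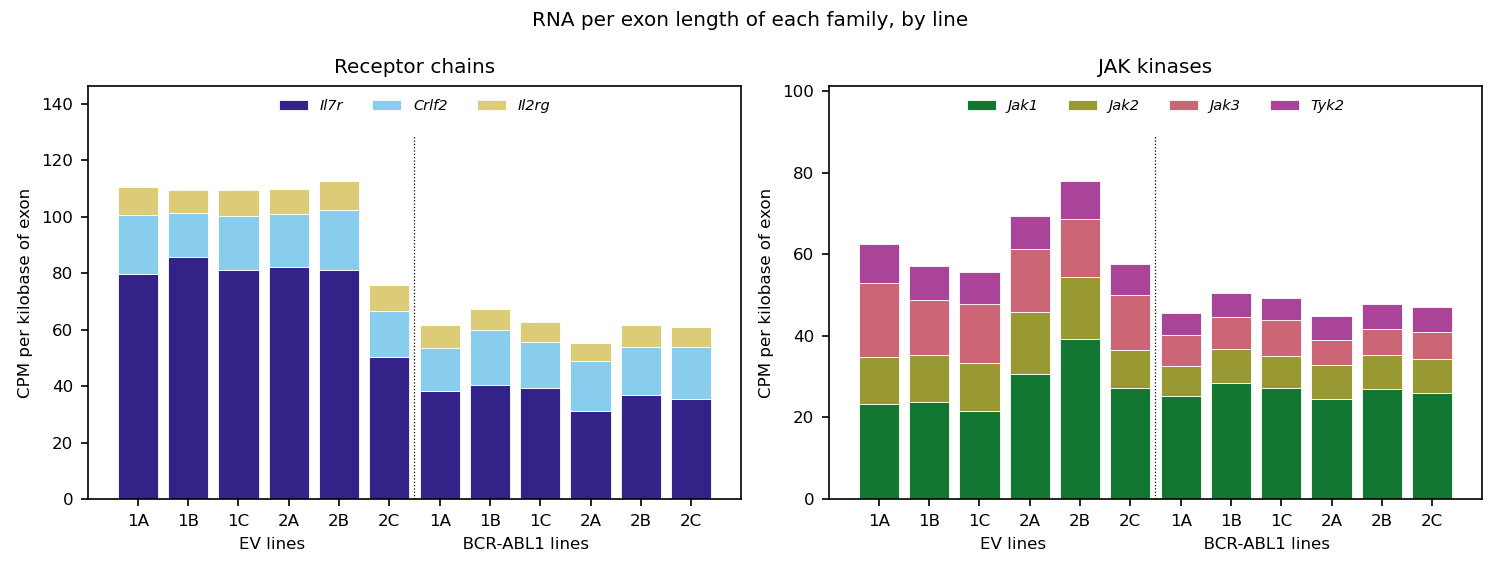
CPM per kilobase of exon in each of the 12 lines, stacked for the 3 receptor chains (left) and for the 4 Janus kinases (right). The receptor sum is lower in every BCR-ABL1 line than in any EV line, mostly through the Il7r segment, and EV line 2C (75.8 CPM per kilobase) is the lowest EV line.

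Ratios between partner genes within a line do not depend on library size or on the scaling between libraries. The ratio of Il2rg to Il7r per kilobase was 0.0980 to 0.179 in EV lines with a median of 0.118, and 0.184 to 0.207 in BCR-ABL1 lines with a median of 0.201. It was 1.62-fold higher in BCR-ABL1 lines, with no overlap (two-sided exact permutation over 924 labelings, p = 0.00216, the smallest possible, adjusted p over the 6 ratios 0.00433). EV line 2C had the highest EV value, 0.179, close to the BCR-ABL1 lines. The ratio of Crlf2 to Il7r, the 2 TSLP receptor chains, was 0.178 to 0.323 in EV and 0.404 to 0.571 in BCR-ABL1 lines, a 1.92-fold difference (exact permutation p = 0.00216, adjusted 0.00433). Crlf2 to Il2rg, with 1.80 to 2.16 in EV and 1.96 to 2.88 in BCR-ABL1 lines, overlapped and differed by 0.25 on the log2 scale (exact permutation p = 0.0325, adjusted 0.0325). This last difference, 0.19 to 0.30 when any 1 line was left out, did not pass without EV line 1B or 2C or BCR-ABL1 line 1B, 2A or 2C.

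Relative to Jak1, all 3 other kinases were lower in BCR-ABL1 lines. The ratio of Jak3 to Jak1 ranged from 0.365 to 0.776 in EV and from 0.241 to 0.328 in BCR-ABL1 lines, a log2 difference of -1.01 (exact permutation p = 0.00216, adjusted 0.00433). Jak2 to Jak1 differed by -0.57 (0.344 to 0.539 against 0.285 to 0.348, exact permutation p = 0.00433, adjusted 0.00649). Tyk2 to Jak1 differed by -0.49 (0.232 to 0.416 against 0.202 to 0.243, exact permutation p = 0.00649, adjusted 0.00779). The difference for Jak2 to Jak1 was -0.82 in mouse 1 and -0.31 in mouse 2, and for Tyk2 to Jak1 -0.84 and -0.14. Whether these values differ between the mice was not tested. With 3 lines against 3, an exact permutation test within 1 mouse cannot go below p = 0.10, so none was run.

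**Figure D4:**
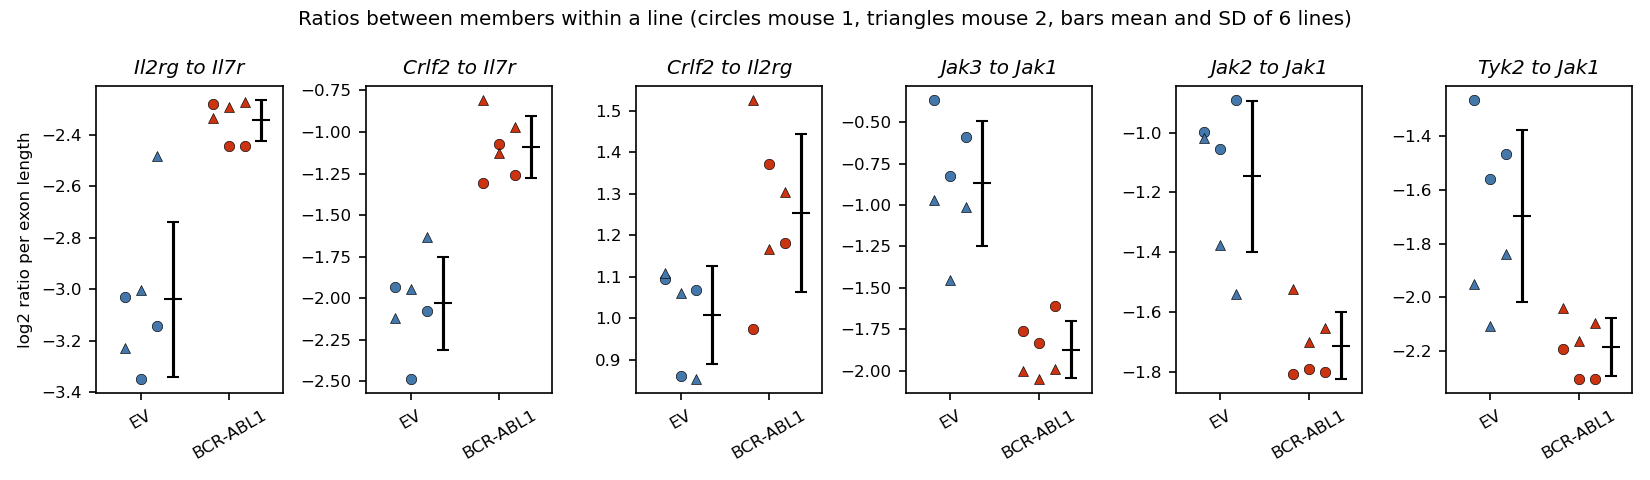
Log2 ratio of CPM per kilobase between partner genes in each line, with circles for mouse 1, triangles for mouse 2, and bars for the mean and SD of 6 lines. The conditions do not overlap for Il2rg to Il7r, Crlf2 to Il7r and Jak3 to Jak1, and EV line 2C is the highest EV line in the first and second panel.

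The genes whose levels followed each member most closely were found by Pearson correlation of log2 CPM over the 12 lines, which share the difference between the conditions. For Il7r they were Bcl6 (r = 0.992), Neat1 (0.991) and Cacfd1 (0.989). For Jak3 they were Ets1 (0.986), Trappc9 (0.984) and Jrk (0.982), for Jak2 Klhl24 (0.990), Sp4 (0.990) and Herpud1 (0.989), and for Tyk2 Sumf1 (0.981), Rps6kb2 (0.981) and Mif4gd (0.980). Il2rg was most like R3hdm4 (0.961), Gm43136 (0.959) and Wdr38 (0.958). Jak1 was followed by Dnaaf5 (0.944), Clint1 (0.944) and Bmf (0.931), and Crlf2 less closely by Amz2 (0.848), Tmbim6 (0.818) and Cyth2 (0.807).

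The ligands of these receptors were hardly measured in the lines themselves, and 0 of 7 ligand genes passed the filter. Il7 RNA had 39, 52 and 43 counts in EV lines 1A, 1B and 1C, 8, 2 and 0 counts in EV lines 2A, 2B and 2C, and 3 to 14 counts in BCR-ABL1 lines. Its highest counts were thus in the EV lines of mouse 1, and 3 counts were taken as the floor of detection. Tslp had at most 1 count in any line. The IL7 that EV lines received was added to the medium as protein and is not seen in these counts.

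Of 6 other chains that pair with the common gamma chain, 4 were tested and 0 were called beyond 1.5-fold in either direction. Of all tested genes 5.99% were higher and 6.49% lower beyond 1.5-fold. By any change, Il4ra was higher (log2 fold change 1.402, FDR 0.0104) and Il21r lower (-0.82, FDR 0.0194). Il2ra, the alpha chain of the IL2 receptor, had -1.05 with an SE of 0.58 (FDR 0.0926 against no change). The median of the 4 was -0.32.

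Of 19 chains of receptors that use JAK2 or TYK2, 16 were tested, and 5 were higher and 1 lower beyond 1.5-fold. The shares over all tested genes were 5.99% and 6.49%. Their median log2 fold change over the 12 lines was 0.73, while Jak2 and Tyk2 themselves had -0.62 and -0.53. A different change in the 2 mice was called in 8 of the 16, against 16.9% of all genes, which this median leaves out. Ghr, Prlr and Il6ra, also tested and named outside the rule for genes, reached at most 1.51 CPM in any line. Il10ra, a chain of the IL10 receptor, rose from between 0.274 and 3.95 CPM in EV lines to between 60.5 and 84.4 CPM under BCR-ABL1 (log2 fold change 5.77, and 6.52 without EV line 2B). Csf2rb, which the IL3, IL5 and GM-CSF receptors share, rose from between 4.71 and 13.6 CPM to between 145.3 and 173.9 CPM, and reads could be split with its near-identical neighbour Csf2rb2. Il3ra rose (log2 fold change 1.87, FDR 0.000194), and Il5ra was the 1 that fell (-2.22, FDR 0.00121). The 2 others that rose, named outside the rule for genes, were Il12rb1 (1.81) and Ifngr2 (1.07). The study picked cytokine receptor genes on these samples, so this list is not independent evidence of its direction.

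Downstream of the kinases, 1 of 7 STAT genes was higher beyond 1.5-fold, Stat4 (log2 fold change 7.00, FDR 3.45e-06), and 0 were lower (1, Stat6, by any change). The STAT factors of the IL7 receptor were at 0.01 (SE 0.086) for Stat5a and 0.07 (SE 0.070) for Stat5b, with FDRs of 0.912 and 0.442 against no change. The sign of the Stat5a value turned under 7 of 21 alternatives. Among 20 inhibitors of JAK signaling, 3 rose and 2 fell beyond 1.5-fold, and the median was -0.15. For both lists the shares over all tested genes were 5.99% higher and 6.49% lower. Cish, Socs3 and Socs1, which STAT factors induce and which block the kinases or receptors, rose by 3.19 (FDR 0.0217), 3.19 (FDR 0.00301) and 1.68 (FDR 0.0361) on the log2 scale. Socs1 did not pass without any 1 of EV lines 1A, 1B, 1C and 2A and BCR-ABL1 lines 1A, 1B and 1C, and Cish rose by 4.68 without EV line 2C. Socs5 fell by 1.77, as did Pias3, named outside the rule, by 1.19.

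Of 12 factors known to act on Il7r transcription, 0 rose and 2 fell beyond 1.5-fold, where 5.99% and 6.49% of all tested genes did. The median was -0.20. Ets1 fell from 591.8 to 692.7 CPM in EV lines to 207.6 to 298.3 CPM in BCR-ABL1 lines (log2 fold change -1.37, FDR 7.06e-05). In the BCR-ABL1 group its lines of mouse 2 lay below those of mouse 1. The same order was seen for Jak3, Il7r, Cxcr4 and other named genes, and the opposite order for Nr3c1, Jak2 and Tyk2. Nr3c1, the glucocorticoid receptor, fell from 264.9 to 320.1 CPM to 132.0 to 159.1 CPM (-1.0001, FDR 0.000480). Foxo1, a forkhead factor that activates Il7r in B cell precursors, had 78.2 to 111.5 CPM in EV lines compared with 55.6 to 110.3 CPM under BCR-ABL1. It differed by 0.10 on the log2 scale (SE 0.17, FDR 0.624 against no change), and BCR-ABL1 line 2A was far below the 5 others. Cxcr4, a chemokine receptor that the study treats beside Il7r, fell from 159.8 to 240.8 CPM to 82.4 to 118.5 CPM (-1.08, FDR 0.00185), again with EV line 2C as the lowest EV line.

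Of 11 genes that IL7 signaling induces, 4 rose and 0 fell beyond 1.5-fold, where 5.99% and 6.49% of all tested genes did. The median log2 fold change was 0.52. Pim1, a survival kinase, rose from between 47.3 and 177.2 CPM in EV lines to between 812.0 and 870.1 CPM under BCR-ABL1. Ccnd2, a D-type cyclin, rose by 3.05 on the log2 scale (FDR 0.0111, and 3.87 without EV line 2C) and Ccnd3, another, by 0.82 (FDR 0.00790). Osm, the cytokine oncostatin M, rose by 1.22 (FDR 0.0175). By any change, 6 of the 11 were higher and 0 lower, where 22.5% and 25.9% of all genes were. These lists are described by counts and medians and were not tested as sets.

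**Figure D5:**
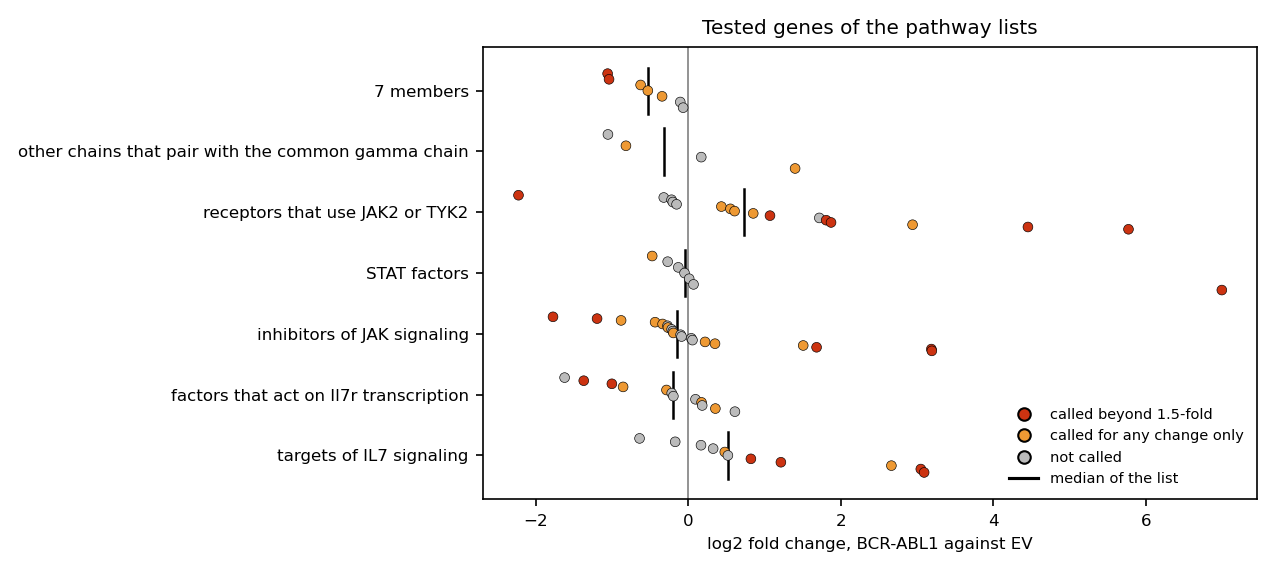
Log2 fold change in BCR-ABL1 against EV lines of every tested gene of the 7 members and of 6 pathway lists, with red points called beyond 1.5-fold, orange points called for any change, grey points not called, and vertical bars for medians. The 7 members lie at or below 0, with a median of -0.53, whereas the receptors that use JAK2 or TYK2 have a median of 0.73 and the targets of IL7 signaling one of 0.52.

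EV line 2C stood apart in several of these genes together. Among EV lines it was the lowest for Il7r (235.3 CPM), Jak2 (47.0 CPM), Tyk2 (52.2 CPM) and Cxcr4 (159.8 CPM), and the highest for Cish (19.0 CPM), Socs3 (6.27 CPM) and Ccnd2 (170.0 CPM). For Il7r, Jak2, Cxcr4 and Cish its level in CPM was nearer to the closest BCR-ABL1 line than to the closest EV line. Its levels of Il2rg (21.6 CPM) and Jak3 (72.2 CPM) lay within the range of the other EV lines.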

How the data were processed

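Total RNA of 12 lines was sequenced from stranded TruSeq Gold libraries as paired-end reads. The authors deposited whole-number read counts per gene, neither normalized nor pooled. The submitters' processing notes list FastQC 0.11.5, Trimmomatic 0.36, TopHat2 2.1.1, Bowtie2 2.3.2, featureCounts 1.5.3, R 3.6.1, edgeR 3.18.1 and GRCm38. The strand setting, the annotation release, and whether reads or pairs were counted are not given in the sources used here. Without the strand setting, reads of Tyk2 and of its antisense partner cannot be told apart, and reads on exons shared by overlapping genes may have been left out.

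Counts were analysed in R 4.3.3 with edgeR 4.0.16: filterByExpr, TMM, a quasi-likelihood fit tested by glmTreat beyond 1.5-fold (the fold and the FDR threshold of 0.05 are the study's) and glmQLFTest against no change, with Benjamini-Hochberg adjustment over 15038 genes. Standard errors come from log2 CPM (prior count 2) between lines. Mouse contrasts used 4 groups of mouse and condition. Ratios used exact permutation over 924 labelings. Alternatives were RLE, other filters, the likelihood ratio fit, DESeq2 1.42.0, replicate blocks, each mouse by itself and each line left out. Those of the contrasts within a condition were added after seeing the data. In simulated counts of 15038 genes, 100 were changed 2-fold and 100 were changed 1.4-fold, drawn from genes with a mean of at least 1 CPM. There glmTreat recovered 40 of 100 true 2-fold changes and glmQLFTest 81. The interaction test recovered 7 of 100 2-fold differences between the mice. Of 100 1.4-fold changes, glmQLFTest recovered 40 and the interaction test 0. Far more genes were called in the data (3389 higher and 3897 lower by any change, 2536 for the interaction), so the adjustment was stricter in the simulation. These recoveries thus do not give the power of the tests above. A test that did not pass does not show that there was no change. Symbols, positions and exon lengths were taken from GENCODE M21 (GRCm38), which held 51633 of 51826 identifiers, and promoter windows from RefSeq (GRCm38.p6), which matched 7 of 7 members. Python 3.11.15 with matplotlib 3.10.9 drew the figures.

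The members, lists and tests were chosen with earlier results of these data known. Named are the 7 members, the 3 genes most like each, per list at most 4 genes called beyond 1.5-fold with the largest change and a mean log2 CPM no lower than 1, and Foxo1, Stat5a, Stat5b, Cxcr4, Il7 and Tslp. Il2ra, Il4ra, Il21r, Stat6 and the genes marked in the text lie outside this rule. The lists covered ligands, receptor chains, STAT genes, inhibitors, Il7r regulators, IL7 targets and markers of B lineage, myeloid, T and NK, mast, erythroid and stromal cells.

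Line numbers are shared between the conditions, and equal first digits mean the same mouse by the labels. Deviations from condition means correlated across conditions at 0.0853 to 0.240 within a mouse and at -0.203 to -0.0636 between mice. After removal of mouse means, lines of equal letter correlated at -0.109 to 0.0856. Lines were thus read as sharing a mouse but not as paired by letter. The main tests of condition and of ratios had no term for the mouse, which entered in the mouse contrasts and as a replicate block. Exact permutation of the ratios within each mouse (400 labelings) gave adjusted p-values of 0.01 to 0.035. No 2 replicates were alike enough to be 1 library. The floor of 3 counts covers counting error only: without molecular identifiers, reads may be copies of the same molecule.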

Additional observations from a re-analysis of the deposited data

Results flagged for a closer look

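Among 64 groups of 6 lines checked, 7 held a line far from the others. The cut-off flags about 1 in 20 independent groups of normally spread values. The groups here shared lines and in part genes, so their count was not compared with chance. EV line 2C was the lowest EV line for Il7r (235.3 CPM, the next being 372.2) and for Cxcr4 (159.8 CPM, the next being 221.0). The same line was the highest EV line for Cish (19.0 CPM, the next being 3.62) and for the ratio of Il2rg to Il7r (0.179, the next being 0.125). EV line 2B was the highest for Csf2rb (13.6 CPM), EV line 1A the highest for Ccnd3 (656.0 CPM), and BCR-ABL1 line 2A the lowest for Foxo1 (55.6 CPM, the next being 98.1).

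The change between EV and BCR-ABL1 lines differed between the mice in 10 of 26 named genes (interaction of mouse and condition, FDR below 0.05). Of all tested genes 16.9% were called. Named genes of the lists were picked for a large change, so their count is not directly comparable with that share. Of the 7 members this was so for Jak1, where the log2 fold change of mouse 2 minus that of mouse 1 was -0.56. Among genes called higher in BCR-ABL1 lines over both mice, the difference was -3.78 for Cish, -2.93 for Il10ra, -2.87 for Ccnd2, -2.56 for Stat4, -2.36 for Socs1, -2.04 for Socs3 and -1.58 for Pim1, so the change was smaller in mouse 2. EV levels of these 7 genes were higher in mouse 2 than in mouse 1 lines in every case, as in Pim1 with 107.6 to 177.2 CPM against 47.3 to 49.6 CPM. Among those called lower, the difference was -0.45 for Ets1 and 0.46 for Nr3c1.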

How the results depend on the processing

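Of 21 alternatives, 20 left 2 members lower beyond 1.5-fold, and with lines of mouse 2 only 1 was (Jak3), Il7r having -1.03. By any change, mouse 2 only gave 3 lower members (Il7r, Jak3 and Tyk2) instead of 5, no filter gave 4 (without Il2rg), and mouse 1 only gave 1 higher (Jak1). The log2 fold change of Jak1 was reversed with mouse 1 only (0.25, any change FDR 0.00579) and without EV line 2B (-0.13 to 0.052 over lines left out). That of Stat5a was reversed with a minimum of 1 CPM in 6 lines (-0.0052), with mouse 2 only (-0.10) and without 5 of the lines (-0.022 to 0.081). The number of members with an interaction was 0 to 2 over lines left out, that called between mice within EV lines 0 to 2 and within BCR-ABL1 lines 0 to 1. Crlf2 to Il2rg differed by 0.19 to 0.30 over lines left out (adjusted p up to 0.0584). Jak2 to Jak1 differed by -0.82 in mouse 1 and -0.31 in mouse 2, and Tyk2 to Jak1 by -0.84 and -0.14. With the mouse as replicate block, Il7r had -1.05 (FDR 0.00175) and Jak3 -1.05 (FDR 0.000519), with the line number as replicate block -1.04 (FDR 0.0101) and -1.04 (FDR 0.00767), and neither block changed a call of a member. With the line number as block Socs1 did not pass (1.94, FDR 0.0615). With mouse 2 only Cish, Socs1, Nr3c1, Ccnd2 and Osm, and with mouse 1 only Ccnd3, did not pass. Over all genes 901 were higher and 976 lower beyond 1.5-fold, with mouse 1 only 2512 and 1877, with mouse 2 only 614 and 408, and by DESeq2 795 and 651 (adjusted p not given for 32). The filter of 1 CPM gave 602 and 674, and without EV line 2C 1353 and 1434 were called. By any change 3389 were higher and 3897 lower, with mouse 1 only 5331 and 5163, and with mouse 2 only 1410 and 1500. The cause of these differences was not tested. The biological coefficient of variation was 0.386 among EV lines of mouse 2 and at most 0.103 in the 3 other groups. A true change under 1.5-fold is by construction not called beyond 1.5-fold. The unknown strand setting bears on Tyk2, and exons shared with another gene on Jak3 and Il2rg.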
